A study of Homo sapiens with 41 samples.

Results

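The genes described are the 3 human Tribbles pseudokinases, TRIB1 (ENSG00000173334), TRIB2 (ENSG00000071575) and TRIB3 (ENSG00000101255), together with NUPR1 (ENSG00000176046), a small nuclear stress protein. They are 4 of the 58735 genes listed in the deposited count tables and were found there by matching Ensembl identifiers to symbols. All 4 had counts in every library and passed the filter on low counts in both cell lines. They were selected on their CPM levels across the groups of these same libraries, so their levels and fitted changes are given as a description, without p-values.

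RNA was sequenced from LX-2, an immortalised line of human hepatic stellate cells, and from HMLE, an immortalised line of human mammary epithelial cells. Cells of each line held a control hairpin (shCtrl) or one directed at the transcription factor ATF4 (shATF4), so that every group, controls included, carried a hairpin, and the labels name only 1 hairpin against ATF4. LX-2 cells of either hairpin had DMSO (the vehicle), TGFbeta (a fibrogenic cytokine), thapsigargin (which blocks the calcium pump of the endoplasmic reticulum and so brings on ER stress), or were in AA_Dep. HMLE cells of either hairpin had DMSO, thapsigargin, AA_Dep or, in place of TGFbeta, the condition labelled Twist_OE, named for the transcription factor Twist. These made 16 groups of 2 samples. The labels give no dose, duration or meaning of AA_Dep, do not say which Twist gene was used, and do not say whether replicates came from separate cultures, so the errors measure only the spread between these samples. In such bulk samples, fewer cells of a type and less RNA per cell cannot be told apart.

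Tribbles proteins have the fold of a protein kinase but little or no catalytic activity, and act as scaffolds. TRIB1 and TRIB2 bring the transcription factor CEBPA to the ubiquitin ligase COP1 for degradation, while TRIB3 is known as an inhibitor of the kinase AKT and as a stress gene whose protein binds ATF4. NUPR1, also called p8, is an intrinsically disordered chromatin protein that many stresses induce. TRIB3 and NUPR1 are both known targets of ATF4, the transcription factor that is made when the integrated stress response slows translation in general.

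Promoter sequence is shown for TRIB2 and TRIB3, whose levels moved with TGFbeta or Twist_OE and with stress and for which the RefSeq table held a window. The 250 bases before the annotated start are given 5′ to 3′ on the plus strand, from RefSeq in build GRCh38.p14. The TRIB2 stretch lies at chr2:12716686-12716935 and that of TRIB3 at chr20:381045-381294, before the most upstream of 3 annotated starts.
TRIB2: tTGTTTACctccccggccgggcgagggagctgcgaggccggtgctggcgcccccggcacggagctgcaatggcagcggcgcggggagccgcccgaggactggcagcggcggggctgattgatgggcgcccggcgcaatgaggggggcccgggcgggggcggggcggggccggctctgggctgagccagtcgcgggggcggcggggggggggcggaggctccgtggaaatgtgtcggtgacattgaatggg
TRIB3: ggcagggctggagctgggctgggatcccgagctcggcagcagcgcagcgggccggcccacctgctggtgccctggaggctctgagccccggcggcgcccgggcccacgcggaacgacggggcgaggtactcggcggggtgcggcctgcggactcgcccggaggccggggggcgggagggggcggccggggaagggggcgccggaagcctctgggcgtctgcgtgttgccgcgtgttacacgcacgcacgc
Capitals mark the single motif match, the FOXO site TGTTTAC, whose position relative to the TRIB2 start is -249 for its first base. That motif was added to the search after the sequence had been seen, and 3.42% of 35116 RefSeq promoter windows of 300 bases hold it on either strand. Both stretches were rich in G and C, with 76.8% for TRIB2 and 78.8% for TRIB3 against a median of 58% over all windows. The other letters searched on both strands were the CEBP-ATF response element TGATGNAA (in 3.62% of all windows), the cAMP response element TGACGTCA (1.85%), the CCAAT box (34.6%), the SMAD palindrome GTCTAGAC (0.202%) and the Twist E-box CATATG (3.04%). None of these letters was in the TRIB2 window or in the 3 TRIB3 windows.

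LX-2 libraries had 14551191 to 18776430 counts in total and HMLE libraries 15956909 to 23243132. The 2 HMLE shATF4 AA_Dep samples held identical values and were counted as 1 library, which leaves 31 libraries. In the 16 LX-2 libraries, shCtrl thapsigargin replicate 2 stood apart, with counts for 15840 genes against at least 22912 in the others. The TMM factor, by which the fits but not the CPM scale a library, was 0.587 there and 0.937 to 1.12 in the others. Fitted LX-2 values of the members are therefore also given with the remaining 15 libraries. Of 6 epithelial markers, 5 stayed under 1 CPM (counts scaled to the library's total) in every LX-2 library and none did in HMLE, while KRT18 ran from 123 to 683 CPM in LX-2. Of 8 stellate or mesenchymal markers, desmin (DES) and LRAT were under 1 CPM in every LX-2 library. LRAT, a marker of stellate cells, ran the other way, at 1.33 to 36.6 CPM in HMLE. ATF4 was lower with shATF4 than with shCtrl in every condition of both lines, with no overlap between libraries. Its group means fell from 235 to 127 CPM in LX-2 DMSO and from 444 to 122 CPM in HMLE DMSO. In LX-2 shATF4 cells ATF4 averaged 222 CPM in thapsigargin and 238 CPM in AA_Dep. In HMLE shATF4 cells it averaged 102 CPM in thapsigargin and stood at 134 CPM in the 1 AA_Dep library.

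TRIB3, the AKT inhibitor and stress gene, had the largest fitted responses of the 4 genes to both stresses in HMLE shCtrl cells. For TRIB3, the DMSO libraries of LX-2 shCtrl read 36.2 and 38.3 CPM, the TGFbeta libraries 26.8 and 28.3, the thapsigargin libraries 493 and 455 and AA_Dep libraries 221 and 192. Both thapsigargin libraries lay above both AA_Dep libraries, and these lay above all others of this hairpin. For TRIB3, the DMSO libraries of HMLE shCtrl read 119 and 123 CPM, the Twist_OE libraries 43.4 and 45.6, the thapsigargin libraries 620 and 569 and AA_Dep libraries 615 and 611. The HMLE thapsigargin and AA_Dep libraries overlapped, while the Twist_OE libraries lay below the DMSO libraries.

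With the hairpin against ATF4, the TRIB3 levels under stress were several-fold lower. For TRIB3, the DMSO libraries of LX-2 shATF4 read 32.2 and 35.4 CPM, the TGFbeta libraries 29.6 and 30.5, the thapsigargin libraries 163 and 172 and AA_Dep libraries 58.8 and 57.7. For TRIB3, the DMSO libraries of HMLE shATF4 read 69.7 and 70.2 CPM, the Twist_OE libraries 71.7 and 65.8, the thapsigargin libraries 89.5 and 87.6 and the 1 AA_Dep library 67.2. So HMLE cells with this hairpin held TRIB3 between 65.8 and 89.5 CPM in all 4 conditions. LX-2 cells with it still showed a higher TRIB3 level in thapsigargin than in any other condition. ATF4 itself in shATF4 thapsigargin averaged 222 CPM in LX-2 and 102 CPM in HMLE, and its part in this contrast was not tested. In mean CPM, shCtrl exceeded shATF4 by 2.83-fold in LX-2 thapsigargin (2.94-fold without the discordant library), 3.54-fold in LX-2 AA_Dep, 6.72-fold in HMLE thapsigargin and 9.12-fold in HMLE AA_Dep. In Twist_OE the order was the opposite, with shATF4 1.55-fold above shCtrl.

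**Figure D1:**
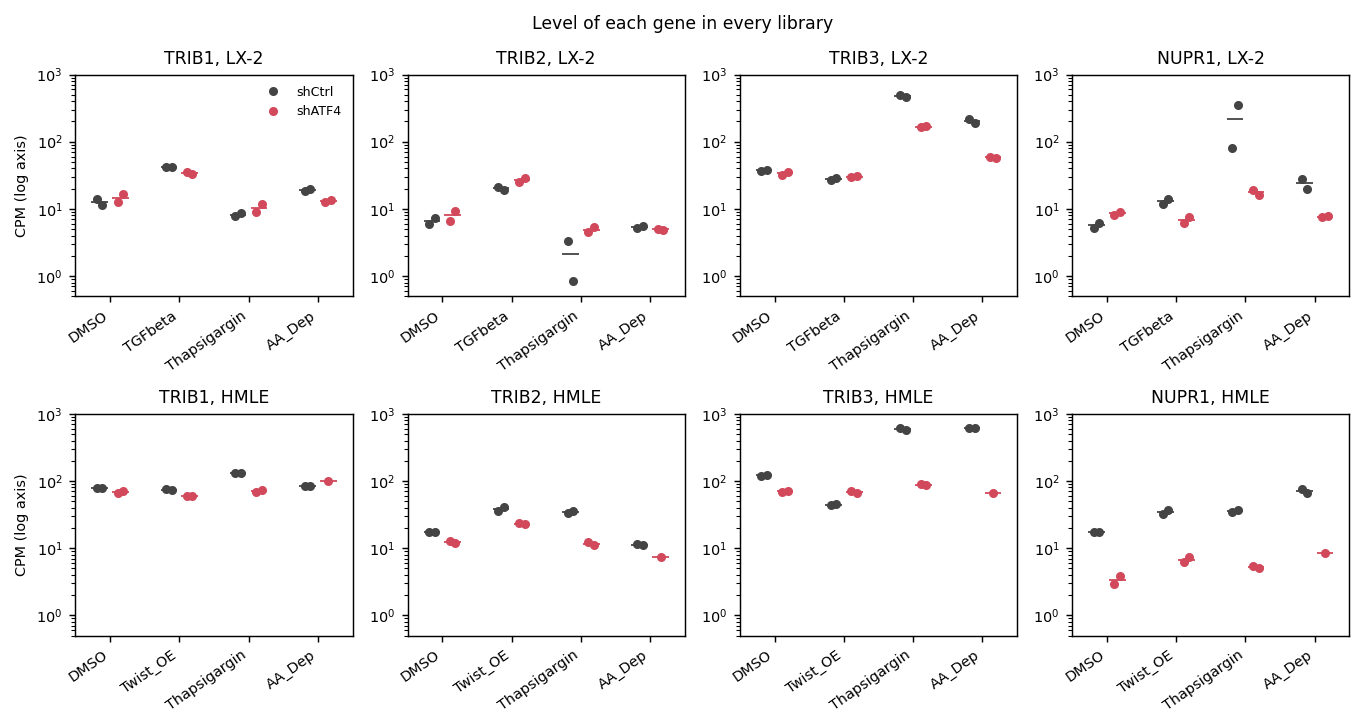
Level of TRIB1, TRIB2, TRIB3 and NUPR1 in CPM (log axis) in each of the 31 libraries, by condition, for LX-2 (top) and HMLE (bottom). Points are libraries and short lines are group means, in grey for shCtrl and red for shATF4. TRIB3 in thapsigargin lay at 493 and 455 CPM in LX-2 shCtrl and at 163 and 172 CPM in LX-2 shATF4, and the 2 NUPR1 points of LX-2 shCtrl thapsigargin lay far apart, at 79.998 and 348 CPM.

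The fit gave the same picture of TRIB3 on the log2 scale, as fitted change ± SE. With shCtrl, thapsigargin against DMSO gave 4.07 ± 0.25 in LX-2 (3.63 ± 0.11 with 15 libraries) and 2.34 ± 0.06 in HMLE. AA_Dep against DMSO gave 2.43 ± 0.24 in LX-2 (2.45 ± 0.09 with 15 libraries) and 2.23 ± 0.06 in HMLE. These 4 changes were called, which here means an edgeR adjusted p under 0.05 over all genes. With shATF4, the thapsigargin change was 2.23 ± 0.23 in LX-2 (2.24 ± 0.09 with 15 libraries) and 0.36 ± 0.06 in HMLE, all called. The AA_Dep change with shATF4 was 0.69 ± 0.22 in LX-2, not called with 16 libraries, and 0.70 ± 0.09 and called with 15. In HMLE it was -0.14 ± 0.07 and not called. With the ATF4 hairpin the AA_Dep values of TRIB3 thus had opposite signs in the 2 lines, a difference that was not tested.

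For TGFbeta and Twist_OE, TRIB3 was lower than in DMSO with the control hairpin. The fitted change was -0.31 ± 0.22 for TGFbeta in LX-2 (-0.30 ± 0.10 and called with 15 libraries, not called with 16) and -1.43 ± 0.06 for Twist_OE in HMLE, which was called. With shATF4 the values were -0.04 ± 0.22 (-0.04 ± 0.10 with 15 libraries) and -0.06 ± 0.06. The difference of the Twist_OE responses, shATF4 minus shCtrl, was 1.38 ± 0.08 and was called, where 29.7% of all genes were called.

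The Twist_OE groups also differed from each other in Twist itself and in epithelial genes. TWIST1 and TWIST2 belong to none of the gene lists and are named here after their values were seen. TWIST1 stood at 119 and 137 CPM in shCtrl Twist_OE and at 29.9 and 31.2 CPM in shATF4 Twist_OE, against 16.8 and 16.3 in shCtrl DMSO. TWIST2 stood at 19.8 and 20.2 CPM in shCtrl Twist_OE, 6.51 and 6.41 in shATF4 Twist_OE, and 3.27 and 3.72 in shCtrl DMSO. The summed level of the 6 epithelial markers was 439 to 449 CPM in shCtrl Twist_OE and 4331 to 4351 CPM in shATF4 Twist_OE, close to the 4525 to 4604 CPM of shATF4 DMSO. The 8 mesenchymal markers summed to 3161 to 3194 CPM in shCtrl Twist_OE and 833 to 889 CPM in shATF4 Twist_OE. Both were above DMSO, at 238 to 243 CPM with shCtrl and 246 to 250 CPM with shATF4. The part of these differences in the Twist_OE values of the 4 genes was not tested.

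Among the 4 genes, NUPR1 had the largest fitted difference between the hairpins in HMLE DMSO. For NUPR1, the DMSO libraries of HMLE shCtrl read 17.3 and 17.5 CPM, the Twist_OE libraries 32.8 and 37.1, the thapsigargin libraries 34.9 and 36.5 and AA_Dep libraries 75.0 and 67.0. For NUPR1, the DMSO libraries of HMLE shATF4 read 2.89 and 3.82 CPM, the Twist_OE libraries 6.21 and 7.31, the thapsigargin libraries 5.35 and 5.03 and the 1 AA_Dep library 8.33. Every shATF4 library was thus below every shCtrl library of HMLE, whatever the condition. In mean CPM, shCtrl exceeded shATF4 by 5.19-fold in DMSO, 5.17-fold in Twist_OE, 6.87-fold in thapsigargin and 8.52-fold in AA_Dep.

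In LX-2 the ATF4 hairpin went with lower NUPR1 in TGFbeta and under stress but not in DMSO. For NUPR1, the DMSO libraries of LX-2 shCtrl read 5.23 and 6.16 CPM, the TGFbeta libraries 11.95 and 14.1, the thapsigargin libraries 79.998 and 348 and AA_Dep libraries 28.1 and 20.0. For NUPR1, the DMSO libraries of LX-2 shATF4 read 8.21 and 8.85 CPM, the TGFbeta libraries 6.24 and 7.64, the thapsigargin libraries 18.99 and 16.1 and AA_Dep libraries 7.60 and 7.73. Both shATF4 libraries of DMSO were above both shCtrl libraries, and in the other 3 conditions they were below. The 348 CPM come from the discordant library: in mean CPM, thapsigargin exceeded DMSO 37.6-fold with it and 14.0-fold without it, and shCtrl exceeded shATF4 in thapsigargin 12.2-fold with it and 4.56-fold without it.

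NUPR1 responses in HMLE were positive with either hairpin. The fitted log2 changes ± SE with shCtrl were 1.01 ± 0.09 for Twist_OE, 1.08 ± 0.09 for thapsigargin and 1.91 ± 0.09 for AA_Dep, and with shATF4 they were 0.99 ± 0.15, 0.65 ± 0.15 and 1.23 ± 0.18. Differences of the responses, shATF4 minus shCtrl, were -0.43 ± 0.18 for thapsigargin and -0.68 ± 0.20 for AA_Dep, neither of them called, and -0.03 ± 0.18 for Twist_OE. The call of the thapsigargin response with shATF4 was lost without shATF4 DMSO replicate 1 (0.44). The AA_Dep difference of NUPR1 was called without that library (-0.92), without shCtrl AA_Dep replicate 2 (-0.77), with DESeq2 size factors (-0.70) and without the count filter (-0.74). For TRIB3 the same 2 differences of responses were -1.98 ± 0.08 and -2.37 ± 0.09.

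In LX-2 the fitted NUPR1 responses were higher with the control hairpin for each condition. With shCtrl they were 1.31 ± 0.67 for TGFbeta, 5.90 ± 0.79 for thapsigargin and 2.04 ± 0.68 for AA_Dep, and with 15 libraries 1.32 ± 0.18, 3.71 ± 0.20 and 2.06 ± 0.18. All 3 were called with 15 libraries, and with 16 only that to thapsigargin. With shATF4 the values were -0.17 ± 0.66, 0.97 ± 0.66 and -0.25 ± 0.66, and with 15 libraries -0.17 ± 0.19, 0.97 ± 0.18 and -0.24 ± 0.19. The thapsigargin value with shATF4 was thus called with 15 libraries and not with 16. Differences of the responses were -4.94 ± 0.97 for thapsigargin and -2.29 ± 0.94 for AA_Dep with 16 libraries, not called, and -2.74 ± 0.27 and -2.30 ± 0.26 with 15, both called. The TGFbeta difference was -1.48 ± 0.94 with 16 libraries, not called, and -1.49 ± 0.26 with 15, called. NUPR2, the paralogue of NUPR1, had 0 counts in all 31 libraries.

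**Figure D2:**
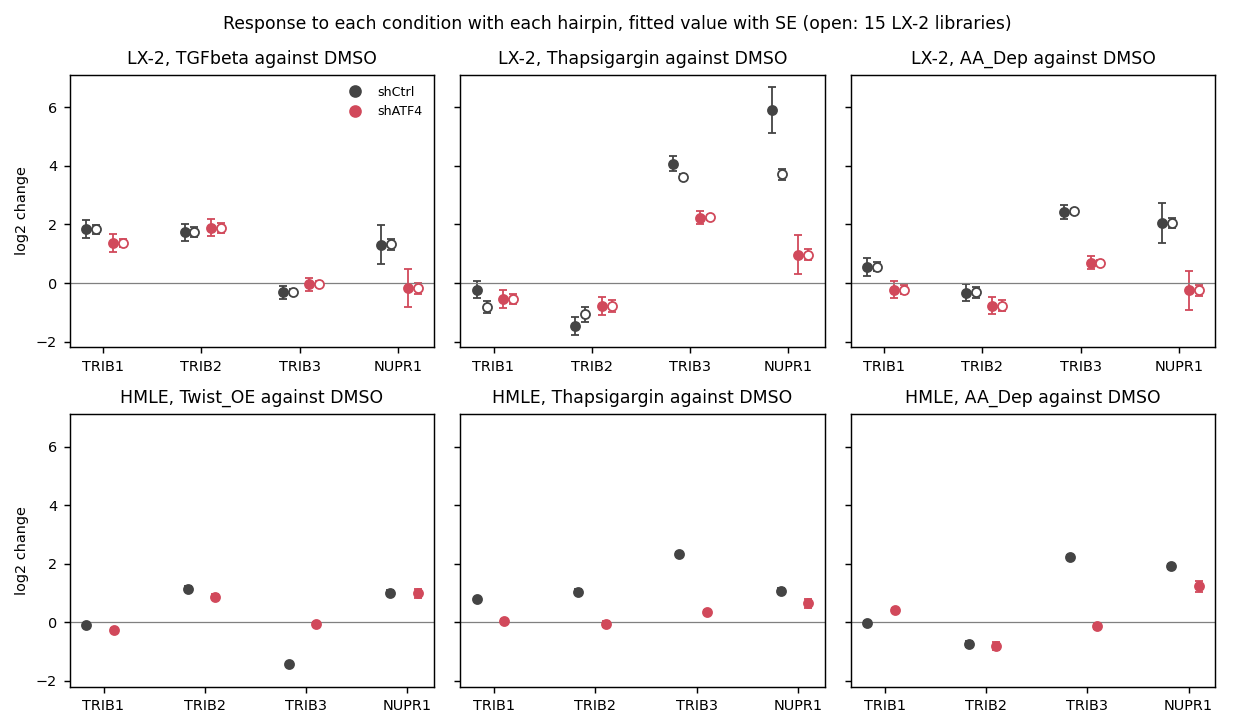
Fitted log2 change ± SE of each gene against DMSO, with shCtrl in grey and shATF4 in red, in LX-2 (top) and HMLE (bottom). Open points are from the 15 LX-2 libraries without the discordant one. TRIB3 in HMLE thapsigargin reads 2.34 with shCtrl and 0.36 with shATF4, and for TGFbeta TRIB1 reads 1.83 with shCtrl and 1.37 with shATF4.

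TRIB1 was highest with TGFbeta in LX-2 and with thapsigargin in HMLE. For TRIB1, the DMSO libraries of LX-2 shCtrl read 14.3 and 11.5 CPM, the TGFbeta libraries 42.6 and 41.5, the thapsigargin libraries 7.84 and 8.59 and AA_Dep libraries 18.7 and 19.9. For TRIB1, the DMSO libraries of LX-2 shATF4 read 12.5 and 16.5 CPM, the TGFbeta libraries 35.4 and 33.2, the thapsigargin libraries 9.04 and 11.8 and AA_Dep libraries 12.7 and 13.7. In CPM, all 4 TGFbeta libraries were above all other LX-2 libraries, and the shCtrl thapsigargin libraries, the discordant one included, were the lowest. The TGFbeta response was 1.83 ± 0.30 with shCtrl (1.84 ± 0.15 with 15 libraries) and 1.37 ± 0.30 with shATF4 (1.37 ± 0.15), with a difference of -0.46 ± 0.42 between them (-0.47 ± 0.21). The summed level of the stellate or mesenchymal markers in TGFbeta was 22307 to 22332 CPM with shCtrl and 10879 to 10884 CPM with shATF4, and its part in these values was not tested.

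HMLE levels of TRIB1 varied less. For TRIB1, the DMSO libraries of HMLE shCtrl read 79.6 and 77.9 CPM, the Twist_OE libraries 74.7 and 72.7, the thapsigargin libraries 132 and 133 and AA_Dep libraries 84.5 and 83.8. For TRIB1, the DMSO libraries of HMLE shATF4 read 67.0 and 71.9 CPM, the Twist_OE libraries 59.3 and 60.0, the thapsigargin libraries 67.9 and 73.9 and the 1 AA_Dep library 98.8. The thapsigargin libraries of shCtrl stood above all others, while those of shATF4 overlapped shATF4 DMSO. On the log2 scale the thapsigargin response was 0.79 ± 0.05 with shCtrl and 0.05 ± 0.06 with shATF4, and the AA_Dep response was -0.02 ± 0.06 and 0.43 ± 0.07. The ATF4 hairpin therefore went with a smaller TRIB1 response to thapsigargin (difference -0.74 ± 0.08) and a larger one to AA_Dep (difference 0.44 ± 0.09), and both differences were called. Without shATF4 DMSO replicate 1 the AA_Dep difference was 0.35 and was not called.

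TRIB2, like TRIB1, was highest with TGFbeta in LX-2, and its lowest level rests on 13 counts in the discordant library. For TRIB2, the DMSO libraries of LX-2 shCtrl read 5.87 and 7.35 CPM, the TGFbeta libraries 21.4 and 19.1, the thapsigargin libraries 3.37 and 0.853 and AA_Dep libraries 5.17 and 5.602. For TRIB2, the DMSO libraries of LX-2 shATF4 read 6.70 and 9.24 CPM, the TGFbeta libraries 25.3 and 28.7, the thapsigargin libraries 4.46 and 5.29 and AA_Dep libraries 5.05 and 4.86. The TGFbeta libraries of shATF4 were above those of shCtrl, and both pairs were above all other LX-2 libraries. The TGFbeta response was 1.74 ± 0.29 with shCtrl (1.74 ± 0.17 with 15 libraries) and 1.89 ± 0.29 with shATF4 (1.88 ± 0.17).

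Unlike in LX-2, TRIB2 rose with thapsigargin in HMLE. For TRIB2, the DMSO libraries of HMLE shCtrl read 17.6 and 17.2 CPM, the Twist_OE libraries 35.6 and 40.5, the thapsigargin libraries 33.8 and 35.5 and AA_Dep libraries 11.6 and 11.1. For TRIB2, the DMSO libraries of HMLE shATF4 read 12.9 and 11.7 CPM, the Twist_OE libraries 23.6 and 22.6, the thapsigargin libraries 12.3 and 11.03 and the 1 AA_Dep library 7.46. Within each condition the shATF4 libraries were below the shCtrl libraries. The thapsigargin response with shCtrl was 1.04 ± 0.09 in HMLE and -1.47 ± 0.31 in LX-2 (-1.07 ± 0.25 with 15 libraries), opposite in sign between the lines, a difference that was not tested. With shATF4 it was -0.06 ± 0.10 in HMLE and -0.78 ± 0.29 in LX-2 (-0.79 ± 0.19). TRIB2 overlaps the microRNA gene MIR3125 in the RefSeq annotation, and the counting is not stated to use strand, so reads of the 2 genes cannot be told apart.

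The order of the groups differed from gene to gene. In LX-2, TRIB3 ran from shCtrl thapsigargin (mean 474 CPM), shCtrl AA_Dep (206), shATF4 thapsigargin (168) and shATF4 AA_Dep (58.3) down to shCtrl DMSO, shATF4 DMSO, shATF4 TGFbeta and shCtrl TGFbeta (27.6), and no neighbours in that order overlapped. NUPR1 in LX-2 began with the same 3 groups, at means of 214, 24.0 and 17.5 CPM, and ended with shCtrl DMSO at 5.70 CPM. TRIB1 and TRIB2 in LX-2 both began with the 2 TGFbeta groups and ended with shCtrl thapsigargin, at means of 8.22 and 2.11 CPM. These lowest means include the discordant library, whose CPM are not scaled by its TMM factor. In the fit with 16 libraries, TRIB1 in thapsigargin was lower with shATF4 than with shCtrl (-0.18 ± 0.30, not called). With 15 libraries it was higher, at 0.43. In HMLE, TRIB3 ended with shCtrl Twist_OE (44.5 CPM) below the shATF4 groups, while NUPR1 held all 4 shCtrl groups above all 4 shATF4 groups.

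Levels were also compared across the lines at the same hairpin and condition. In shCtrl DMSO, HMLE exceeded LX-2 by 6.12-fold for TRIB1, 2.63-fold for TRIB2, 3.25-fold for TRIB3 and 3.06-fold for NUPR1 in mean CPM. In shCtrl thapsigargin, with the discordant LX-2 library included, the HMLE over LX-2 ratio was 16.1 for TRIB1, 16.4 for TRIB2, 1.25 for TRIB3 and 0.167 for NUPR1, so that NUPR1 was higher in LX-2. In shATF4 thapsigargin TRIB3 (0.529) and NUPR1 (0.296) were both higher in LX-2. With shATF4 in DMSO, the HMLE over LX-2 ratio of NUPR1 was 0.393, so that the line with more NUPR1 under the control hairpin had less of it under the ATF4 hairpin. These ratios between lines carry no test.

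Calls in each comparison are set beside the share of all tested genes called there (17772 genes with 16 LX-2 libraries, 18649 with 15 and 17940 in HMLE). Since the levels behind these comparisons were known when the genes were chosen, the shares are given for scale. TGFbeta with shCtrl called 2 of 4 genes (TRIB1 and TRIB2, higher) where 3.15% of all genes were called, and with 15 libraries all 4 (TRIB3 lower) where 22.1% were. Thapsigargin in LX-2 called 3 of 4 (TRIB3 and NUPR1 higher, TRIB2 lower) beside 34.4%, and with 15 libraries TRIB1 was also called lower, beside 40.5%. AA_Dep in LX-2 called TRIB3 alone beside 13%, and with 15 libraries TRIB1, TRIB3 and NUPR1, all higher, beside 45.6%.

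In HMLE, Twist_OE with shCtrl called 3 of 4 (TRIB2 and NUPR1 higher, TRIB3 lower) where 57.2% of all genes were called. Thapsigargin called all 4, all higher, where 36.8% were called. AA_Dep called 3 of 4 (TRIB3 and NUPR1 higher, TRIB2 lower) where 61.7% were called.

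The same responses were called with the ATF4 hairpin as follows. TGFbeta called TRIB1 and TRIB2, both higher, beside 2.42% of all genes, and again with 15 libraries beside 27.6%. With 16 libraries both of these calls were lost without any of the 4 shATF4 DMSO or TGFbeta libraries (1.19 to 1.59 for TRIB1 and 1.68 to 2.15 for TRIB2). Thapsigargin in LX-2 called TRIB3 beside 7.86%, and all 4 with 15 libraries (TRIB3 and NUPR1 higher, TRIB1 and TRIB2 lower) beside 37.1%. AA_Dep in LX-2 called 0 of 4 by edgeR beside 8.52% (2 at an unadjusted p under 0.05, 1 by DESeq2), and with 15 libraries TRIB3 higher and TRIB2 lower (-0.78 ± 0.19) beside 42.4%. In HMLE, Twist_OE called TRIB2 and NUPR1 higher and TRIB1 lower beside 35.3%, thapsigargin called TRIB3 and NUPR1 higher beside 32.5%, and AA_Dep called TRIB1 and NUPR1 higher and TRIB2 lower beside 54.1%.

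The hairpins were compared within each condition as shATF4 against shCtrl. In LX-2 DMSO edgeR called 0 of 4 genes beside 0.242% of all genes (0 at an unadjusted p under 0.05 and 0 by DESeq2), and 0 with 15 libraries beside 11.6% (1 at an unadjusted p under 0.05). In LX-2 TGFbeta it called 0 beside 1.29% (0 unadjusted, 0 by DESeq2), and NUPR1 with 15 libraries, at -0.92 ± 0.18, beside 21.7%. With 16 libraries ATF4 itself, the hairpin's target, was not called in LX-2 DMSO or TGFbeta, although its libraries did not overlap. The lack of a call there does not show equal levels. In LX-2 thapsigargin TRIB3 and NUPR1 were called lower beside 0.231% of all genes, and again with 15 libraries beside 5.2%. In LX-2 AA_Dep TRIB3 was called lower beside 0.09%, and with 15 libraries TRIB1, TRIB3 and NUPR1 were, beside 9.91%.

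The fitted sizes of these LX-2 differences were -2.00 ± 0.23 for TRIB3 (-1.54 ± 0.10 with 15 libraries) and -4.38 ± 0.73 for NUPR1 (-2.17 ± 0.18) in thapsigargin. In AA_Dep they were -1.91 ± 0.23 for TRIB3 (-1.90 ± 0.09), -1.73 ± 0.67 for NUPR1 (-1.73 ± 0.17) and -0.63 ± 0.30 for TRIB1 (-0.62 ± 0.15). The TRIB1 difference in thapsigargin was -0.18 ± 0.30 with 16 libraries and 0.43 ± 0.21 with 15, with a change of sign and no call in either. With 16 libraries the TRIB3 and NUPR1 calls in thapsigargin were lost without shATF4 thapsigargin replicate 1 (-1.93 and -4.45) or 2 (-1.99 and -4.21), and the TRIB3 call in AA_Dep without any of the 4 AA_Dep libraries (-2.00 to -1.81).

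In HMLE the hairpin called 3 of 4 genes in DMSO, all lower, beside 12.8% of all genes. These were NUPR1 at -2.36 ± 0.13, TRIB3 at -0.78 ± 0.06 and TRIB2 at -0.49 ± 0.10, while TRIB1, at -0.17 ± 0.06, was not called. All 4 were called in Twist_OE beside 47.2%, with TRIB3 higher at 0.60 ± 0.06 and NUPR1 lower at -2.39 ± 0.11. All 4 were called lower in thapsigargin beside 24.3%, from -0.91 ± 0.05 for TRIB1 to -2.80 ± 0.11 for NUPR1. All 4 were called in AA_Dep beside 16.9%, with TRIB3 at -3.14 ± 0.08, NUPR1 at -3.04 ± 0.14, TRIB2 at -0.56 ± 0.15 and TRIB1 higher at 0.28 ± 0.07. The AA_Dep values rest on 1 shATF4 library, assumed to vary like the other groups.

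**Figure D3:**
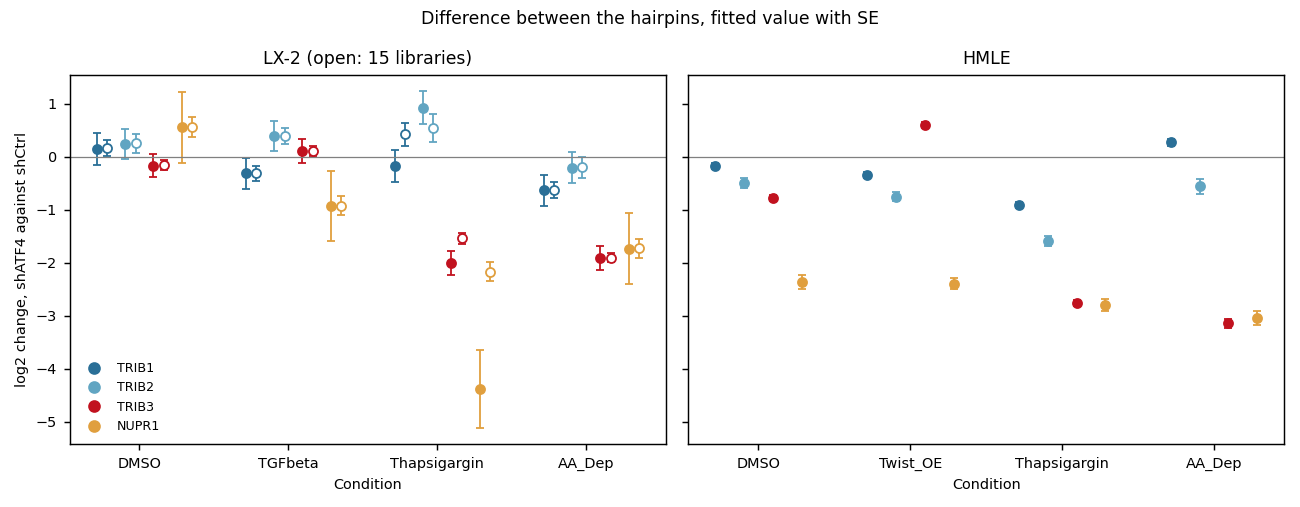
Fitted log2 difference ± SE between shATF4 and shCtrl for each gene in each condition of LX-2 (left, open points from 15 libraries) and HMLE (right). Values below 0 are lower with shATF4. NUPR1 lies at -2.36 in HMLE DMSO and at 0.56 in LX-2 DMSO, and TRIB3 lies at 0.60 in HMLE Twist_OE against -2.76 in HMLE thapsigargin.

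Differences of the stress responses between the hairpins were fitted as interactions. For thapsigargin in LX-2, TRIB3 was called (-1.84 ± 0.32) beside 0.27% of all genes, and TRIB3 (-1.39 ± 0.14) and NUPR1 with 15 libraries beside 6.13%. The TRIB3 call with 16 libraries was lost without any DMSO library or either shATF4 thapsigargin library (-1.86 to -1.72). For AA_Dep in LX-2, 0 of 4 were called by edgeR beside 0.0675% (2 at an unadjusted p under 0.05, 1 by DESeq2), and TRIB1, TRIB3 and NUPR1 with 15 libraries beside 10.6%, with TRIB3 at -1.75 ± 0.13. For thapsigargin in HMLE, TRIB1, TRIB2 (-1.10 ± 0.13) and TRIB3 were called, all with a smaller response, beside 4.56%. For AA_Dep in HMLE, TRIB1 and TRIB3 were called beside 5.09%.

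The transcription factors known to act with or on these genes formed a list of 11, which includes ATF4 itself. This list and the others below were chosen with earlier results of these data known. Their adjusted p-values and counts are therefore given for scale. In HMLE, 8 of the 11 rose and 2 fell with thapsigargin (median log2 change 0.63, against 0.00 over all genes), and likewise 8 rose and 2 fell with AA_Dep (median 0.98, against 0.00). Of all genes, 36.8% and 61.7% were called in these comparisons. DDIT3 (CHOP), a partner of ATF4 in ER stress, rose by 5.17 ± 0.12 in thapsigargin (edgeR adjusted p = 2.6e-16) and by 4.04 ± 0.13 in AA_Dep (edgeR adjusted p = 6.7e-15). ATF3 rose by 2.99 ± 0.10 and 4.29 ± 0.10 (edgeR adjusted p = 3.5e-14 and 9.2e-17). CEBPA, the factor degraded through TRIB1 and TRIB2, changed by -1.77 ± 0.17 in thapsigargin (edgeR adjusted p = 1.1e-07) and by -2.89 ± 0.20 in Twist_OE (edgeR adjusted p = 2e-10).

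Most called members of that list were lower with the ATF4 hairpin in the HMLE stresses, ATF4 itself, the hairpin's target, among them. Of the 11, 7 were lower and 1 higher with shATF4 in HMLE thapsigargin (median -0.56, against 0.01 over all genes) and 9 lower and 1 higher in HMLE AA_Dep (median -0.72, against 0.03), where 24.3% and 16.9% of all genes were called. The gene that was higher in both was ATF3, at 202 CPM with shATF4 against 120 and 127 CPM with shCtrl in AA_Dep (0.75 ± 0.08, edgeR adjusted p = 2.8e-06). CEBPB, a partner of ATF4, was at -1.36 ± 0.10 in thapsigargin (edgeR adjusted p = 7.3e-09), and XBP1, a factor of the unfolded protein response, was at -1.83 ± 0.09 in AA_Dep (edgeR adjusted p = 3.8e-11). In LX-2 thapsigargin 1 of 11 passed with 16 libraries, ATF4 (median of the list -0.54, against 0.15 over all genes), and 6 with 15 libraries, all lower, among them ATF3 at -1.32 ± 0.15 (edgeR adjusted p = 9.3e-05). In LX-2 AA_Dep 1 passed with 16 libraries, XBP1, and 8 lower with 1 higher passed with 15. The shares of all genes called were 0.231% and 0.09% with 16 libraries and 5.2% and 9.91% with 15.

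LX-2 shCtrl cells under stress had 6 of the 11 factors higher and 1 lower in thapsigargin (median 0.96, against -0.07 over all genes), and 6 higher and 1 lower in AA_Dep (median 1.27, against 0.00), where 34.4% and 13% of all genes were called. DDIT3 rose by 7.25 ± 0.75 in thapsigargin with 16 libraries (edgeR adjusted p = 0.00012) and by 5.32 ± 0.14 with 15 (edgeR adjusted p = 2.5e-13). TGFbeta moved 1 of 11, XBP1, beside 3.15% of all genes. XBP1 rose by 0.99 ± 0.15 (edgeR adjusted p = 0.0044), or 0.996 ± 0.096 with 15 libraries. With 15 libraries 3 of the factors rose and 2 fell, beside 22.1% of all genes. DDIT3 was among those that fell, at -0.47 ± 0.15 (edgeR adjusted p = 0.038).

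Partners of Tribbles proteins, a list of 18 that shares CEBPA and CEBPB with the first, moved in both directions. In HMLE 6 rose and 7 fell with thapsigargin (median 0.01), and 6 rose and 7 fell with AA_Dep (median -0.08), where 36.8% and 61.7% of all genes were called and the median over all genes was 0.00. SQSTM1 (p62), an autophagy receptor, rose by 1.79 ± 0.05 in HMLE AA_Dep (edgeR adjusted p = 1.1e-15) and by 2.07 ± 0.18 in LX-2 AA_Dep (edgeR adjusted p = 6e-05), or 2.08 ± 0.10 with 15 libraries. FOXO1, a transcription factor that TRIB2 is known to restrain, rose by 1.43 ± 0.28 with TGFbeta in LX-2 (edgeR adjusted p = 0.019; 1.44 ± 0.17 with 15 libraries) and was at -1.50 ± 0.29 in LX-2 thapsigargin (edgeR adjusted p = 0.0046), or -1.14 ± 0.24 with 15 libraries (edgeR adjusted p = 0.0012). TRIB2 in the same comparisons was at 1.74 and -1.47.

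With the ATF4 hairpin, 5 of the 18 partners were higher and 2 lower in HMLE thapsigargin (median 0.10), and 3 higher and 4 lower in HMLE AA_Dep (median 0.01), where 24.3% and 16.9% of all genes were called. STK40, a pseudokinase related to the Tribbles family, was at -0.83 ± 0.06 in HMLE thapsigargin (edgeR adjusted p = 1.8e-08). It was among the genes whose response was smaller with shATF4, by -0.64 ± 0.09 in thapsigargin (edgeR adjusted p = 0.00017) and -0.41 ± 0.10 in AA_Dep (edgeR adjusted p = 0.022). In LX-2 thapsigargin with 15 libraries 2 of the 18 passed, CEBPB and STK40, both lower, beside 5.2% of all genes.

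Partners of NUPR1 and genes known to change with it made a list of 13, of which NUPR2 and LCN2 were not tested in LX-2 and NUPR2 in HMLE. In HMLE 5 rose and 4 fell with thapsigargin (median 0.05), 7 rose and 2 fell with AA_Dep (median 0.39), and 5 rose and 7 fell with Twist_OE (median -0.17), where the median over all genes was 0.00 and 36.8%, 61.7% and 57.2% of them were called. HMOX1, the heme-degrading stress enzyme, rose by 3.40 ± 0.12 with Twist_OE (edgeR adjusted p = 6e-15), and in LX-2 by 2.26 ± 0.25 with thapsigargin (edgeR adjusted p = 0.0002) and 2.48 ± 0.26 with AA_Dep (edgeR adjusted p = 0.00014). With 15 libraries these LX-2 values of HMOX1 were 2.64 ± 0.13 and 2.50 ± 0.12. RUNX2, a transcription factor of bone development, was lower with shATF4 in all 4 HMLE conditions, from -0.89 ± 0.17 in DMSO (edgeR adjusted p = 0.0015) to -1.47 ± 0.12 in Twist_OE (edgeR adjusted p = 3.2e-09). NUPR1 was lower in the same 4 comparisons.

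LCN2 (lipocalin 2), an iron-binding secreted protein, had the largest change of the 3 lists in Twist_OE. It stood at 15.6 and 15.9 CPM in HMLE shCtrl DMSO, 0.197 and 0.275 in shCtrl Twist_OE, and 26.5 and 32.6 in shATF4 Twist_OE. The hairpins differed by 6.90 ± 0.18 in Twist_OE (edgeR adjusted p = 2.6e-16), in the groups whose TWIST1 and epithelial markers also differed.

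Over the 3 lists together, 39 genes, 37 were tested in LX-2 and 38 in HMLE. ATF4, the hairpin's target, is among them. It was the 1 listed gene called between the LX-2 hairpins in thapsigargin with 16 libraries. With shCtrl, 4 passed in LX-2 TGFbeta, 17 in thapsigargin and 14 in AA_Dep (15, 22 and 25 with 15 libraries), and in HMLE 30 passed in Twist_OE, 30 in thapsigargin and 29 in AA_Dep. Of all genes, 3.15%, 34.4% and 13% were called in these LX-2 comparisons (22.1%, 40.5% and 45.6% with 15 libraries) and 57.2%, 36.8% and 61.7% in HMLE. Between the hairpins, edgeR called 0 in LX-2 DMSO (6 at an unadjusted p under 0.05, 3 by DESeq2), 1 in TGFbeta, 1 in thapsigargin and 1 in AA_Dep, and with 15 libraries 10, 15, 9 and 19. The shares of all genes there were 0.242%, 1.29%, 0.231% and 0.09%, and with 15 libraries 11.6%, 21.7%, 5.2% and 9.91%. In HMLE the hairpins differed for 14 in DMSO, 26 in Twist_OE, 22 in thapsigargin and 22 in AA_Dep, beside 12.8%, 47.2%, 24.3% and 16.9% of all genes. Responses differed between the hairpins for 10 in HMLE thapsigargin and 9 in HMLE AA_Dep, beside 4.56% and 5.09% of all genes. For LX-2 these counts were 0 for thapsigargin (11 unadjusted, 4 by DESeq2) and 0 for AA_Dep (7 unadjusted, 4 by DESeq2), and 12 and 13 with 15 libraries, beside 0.27% and 0.0675% of all genes with 16 and 6.13% and 10.6% with 15.

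**Figure D4:**
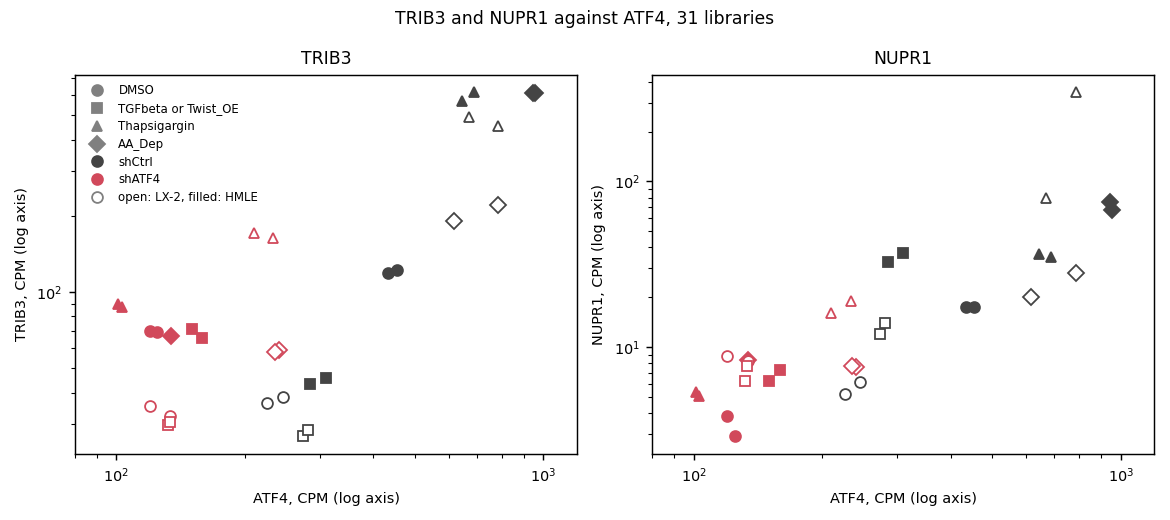
TRIB3 (left) and NUPR1 (right) against ATF4 in CPM, both axes log, 1 point per library over 31 libraries. Open points are LX-2 and filled points HMLE, grey is shCtrl and red shATF4, and shapes give the condition. The 4 shCtrl stress libraries of HMLE have ATF4 at 643 to 955 CPM and TRIB3 at 569 to 620 CPM, and the shATF4 libraries of HMLE have ATF4 at 101 to 159 CPM and TRIB3 at 65.8 to 89.5 CPM.

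Levels of the members against each other are given over the 8 group means of a line, which share libraries and the ATF4 hairpin, as a description. In LX-2, log2 levels of TRIB1 and TRIB2 had Pearson r = 0.91 and Spearman rho = 0.88 (0.94 and 0.90 with 15 libraries), and in HMLE r = 0.19 and rho = -0.10. TRIB3 and NUPR1 had r = 0.89 and rho = 0.57 in LX-2 (0.88 and 0.57 with 15 libraries), and r = 0.65 and rho = 0.40 in HMLE. Against ATF4, NUPR1 had r = 0.92 and rho = 0.93 in HMLE and r = 0.83 and rho = 0.52 in LX-2 (0.78 and 0.50 with 15 libraries). TRIB3 against ATF4 had r = 0.80 and rho = 0.52 in HMLE and r = 0.82 and rho = 0.52 in LX-2 (0.76 and 0.50). The plot of both genes against ATF4 shows the gap between shCtrl DMSO and shCtrl Twist_OE in HMLE, where ATF4 and TRIB3 were lower in Twist_OE and NUPR1 was higher.

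The genes most like each member over group means were ranked by the smaller of the 2 correlations, one per line, among 9687 genes. For TRIB3 they were GOT1, a transaminase (0.938), SESN2, a stress-induced sestrin (0.925), and MOCOS (0.902), and with 15 LX-2 libraries GOT1, TOM1L1 and SESN2. For NUPR1 they were ZFAND2B (0.914), ABCB8 (0.892) and NFE2L1 (0.890), and with 15 libraries ALDH1L2, NFE2L1 and PSAT1, the last of these an enzyme of serine synthesis. For TRIB1 they were PAFAH1B1 (0.857), RBM39 (0.842) and the Notch ligand JAG1 (0.820), and for TRIB2 ZFYVE16 (0.927), HDGFL3 (0.921) and GPR180 (0.920). With 15 libraries 1 of the 3 was shared for TRIB1, TRIB2 and NUPR1, and 2 for TRIB3.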

How the data were processed

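The authors deposited counts per gene, 1 file per sample, as whole numbers. They list 58735 Ensembl identifiers, and 58207 could be matched to a symbol. The files also held between 110 and 452 blank lines each. The submitters' processing notes name the tools STAR, featureCounts, cutadapt, DESeq, HOMER and Bowtie2 and the builds hg38 and hg19. Their roles and versions are not given in the sources used here. Per the labels, RNA was extracted with an RNeasy kit and libraries made with a SMARTer mRNA-Seq kit. The 9 ChIP-seq samples were not analysed here.

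From these counts, CPM were computed on the total of each library. Each line was fitted with its 8 groups in edgeR 4.0.16 (limma 3.58.1, R 4.3.3) with filterByExpr, TMM and the quasi-likelihood F test, adjusted by Benjamini and Hochberg over all genes with a threshold of 0.05. Each SE was taken as the size of the log2 change divided by the root of its F statistic. The script was tested on simulated counts. Replicates had log2 CPM correlations of at least 0.985 in LX-2 outside shCtrl thapsigargin and 0.990 in HMLE.

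The members, the 3 lists and the tests were chosen with earlier results of these data known. Genes were named by rule: the members, ATF4, from each list and comparison the 3 called genes that changed most and 2 abundant genes not called, and the 3 genes most like each member (mean CPM of at least 5 in each line, log2 CPM with a prior count of 2). TWIST1, TWIST2 and genes that singly made up a count were named after their values were seen. Alternatives were DESeq2 1.42.0 (Wald test), its size factors in edgeR, no count filter, the replicate number as a block, and leaving out each library. The HMLE Twist_OE and LX-2 TGFbeta differences of responses and the shATF4 responses were added after the data were seen.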

Additional observations from a re-analysis of the deposited data

Results flagged for a closer look

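Fitted differences of the responses between the hairpins, given as the log2 response with shATF4 minus that with shCtrl, passed edgeR's threshold over all genes in the cases below. The genes were selected on these same levels, so the values are a description. For thapsigargin in LX-2 the difference was -1.84 for TRIB3, a call that was lost with DESeq2 size factors, with the replicate block and without single libraries. For thapsigargin in HMLE it was -0.74 for TRIB1, -1.10 for TRIB2 and -1.98 for TRIB3, and for Twist_OE in HMLE it was 1.38 for TRIB3. For AA_Dep in HMLE it was 0.44 for TRIB1 and -2.37 for TRIB3, and both rest on 1 shATF4 AA_Dep library. The TRIB1 call in AA_Dep was lost without shATF4 DMSO replicate 1 (0.35).

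Other pairs of changes ran in opposite directions, and the difference within each pair was not tested. Between LX-2 and HMLE, shATF4 against shCtrl gave -0.63 and 0.28 for TRIB1 in AA_Dep, 0.93 and -1.59 for TRIB2 in thapsigargin, and 0.56 and -2.36 for NUPR1 in DMSO. The LX-2 value of TRIB2 was 0.93 ± 0.31 with 16 libraries and 0.55 ± 0.26 with 15, with no call in either. The LX-2 values of TRIB1 and NUPR1 were not called with 16 libraries. Thapsigargin against DMSO with shCtrl gave -1.47 in LX-2 and 1.04 in HMLE for TRIB2. AA_Dep against DMSO with shATF4 gave 0.69 and -0.14 for TRIB3, and -0.25 and 1.23 for NUPR1. Between DMSO and TGFbeta in LX-2, shATF4 against shCtrl gave -0.16 ± 0.22 and 0.11 ± 0.22 for TRIB3, and 0.56 ± 0.67 and -0.92 ± 0.66 for NUPR1. None of these was called with 16 libraries. With 15 libraries only the TGFbeta value of NUPR1 was called, at -0.92 ± 0.18. Between DMSO and Twist_OE in HMLE, shATF4 against shCtrl gave -0.78 and 0.60 for TRIB3.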

How the results depend on the processing

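Counts of called genes over the 3 lists moved by over 1.5 times mainly in LX-2. The share of all genes called moved as well: between the LX-2 hairpins in DMSO it was 0.242% with 16 libraries and 11.6% with 15. The list counts that follow are therefore not read as a result about the listed genes. DESeq2's Wald test gave 3 genes between the LX-2 hairpins in DMSO, 6 with TGFbeta, 10 with thapsigargin, 5 with AA_Dep, and 4 for each difference of stress responses. DESeq2 size factors in edgeR gave 2 between the hairpins in TGFbeta. Without the count filter, 2 genes were called for TGFbeta with shCtrl, 8 between the hairpins in thapsigargin and 5 for the difference of thapsigargin responses. Leaving out each library in turn gave 0 to 15 genes for TGFbeta, 9 to 29 for thapsigargin and 10 to 25 for AA_Dep with shCtrl in LX-2. Between the LX-2 hairpins it gave 0 to 10 in DMSO, 0 to 15 with TGFbeta, 0 to 31 with thapsigargin and 0 to 19 with AA_Dep, and for the differences of responses 0 to 28 (thapsigargin) and 0 to 13 (AA_Dep). In HMLE it gave 7 to 11 between the hairpins in DMSO, with 7 without shCtrl DMSO replicate 1. The causes were not tested.

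Replicate numbers did not pair the samples: correlations of same-numbered deviations were over 0.1 in 2 of 28 pairs in LX-2 and 1 of 21 in HMLE. With the replicate block, 0 list genes were called between the hairpins in LX-2 AA_Dep, and TRIB3 in the LX-2 thapsigargin difference of responses (-1.82) and NUPR1 between the LX-2 hairpins in thapsigargin (-4.22) were no longer called.

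None of the 52 called member changes reversed. Without the discordant library, LX-2 shCtrl thapsigargin replicate 2, all 13 LX-2 calls of the members were kept. In LX-2, calls were lost without single libraries: TRIB1 for TGFbeta without shCtrl DMSO replicate 1 (1.99) or 2 (1.70) or TGFbeta replicate 1 (1.81), TRIB2 for TGFbeta without any shCtrl DMSO or TGFbeta library (1.58 to 1.93), TRIB2 for thapsigargin without shCtrl DMSO replicate 2 (-1.31), and TRIB3 between the hairpins in AA_Dep without any AA_Dep library (-2.00 to -1.81). TRIB3 in the thapsigargin difference of responses was also lost with DESeq2 size factors (-1.92). Between the hairpins in thapsigargin, TRIB3 (-1.93 and -1.99) and NUPR1 (-4.45 and -4.21) were lost without shATF4 replicate 1 or 2. With shATF4, the TGFbeta calls of TRIB1 (1.19 to 1.59) and TRIB2 (1.68 to 2.15) were lost without any of the shATF4 DMSO or TGFbeta libraries. In HMLE the AA_Dep difference of responses of TRIB1 (0.35) and the thapsigargin response of NUPR1 with shATF4 (0.44) were lost without shATF4 DMSO replicate 1. The AA_Dep difference of NUPR1 was called with DESeq2 size factors (-0.70) and without the count filter (-0.74), shATF4 DMSO replicate 1 (-0.92) or shCtrl AA_Dep replicate 2 (-0.77).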
